A study of Mus musculus with 16 samples.

Results

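The 37 genes described here are interferon-stimulated genes, a set named by symbol from knowledge of the pathway. The set was chosen with earlier results of these data known, so the counts below describe it and are not an independent test. Of the 37 genes, 33 were measured, among 22180 genes that had a probe set carrying a single gene symbol. The probe set with the highest mean stood for each gene. Oas1a, Ifi27l2a and Dtx3l shared their probe sets with other symbols, and Ifi44 had no probe set under its symbol, so these 4 were not analysed here. The cells were mouse dendritic cells grown from the bone marrow of male C57/B6 mice for 10 days with 20 ng/ml GM-CSF, the growth factor that gives mixed cultures of dendritic and macrophage-like cells. Total RNA, 200 ng per sample, was hybridised to Affymetrix arrays, 16 in all.

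Each of the 4 groups held 4 arrays, labelled as biological replicates without naming animals or cultures, so every p-value here reflects array-to-array spread and nothing wider. The IMQ+PA group received IMQ in the presence of PA for 24 h. The IMQ group received IMQ for 24 h, at a dose that the labels give as 3 uM in one place and 3 ug/ml in another. The PA group received PA at 0.5 mM, carried on albumin (BSA) with 6 PA molecules to 1 of BSA, also for 24 h. The mock group received a mock treatment, and the labels do not say whether it held albumin. IMQ is read here as imiquimod, a small molecule that activates the endosomal RNA receptor Tlr7, and PA as palmitic acid, a saturated fatty acid. No group carried an engineered allele.

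Type I interferons bind the receptor pair Ifnar1 and Ifnar2 and, through the kinases Jak1 and Tyk2, assemble a transcription factor that holds Stat2 and Irf9. This complex binds the interferon-stimulated response element, a repeated GAAA motif before the start of its target genes. The products of these genes degrade or trap viral RNA, sense foreign nucleic acid, attach the ubiquitin-like protein Isg15 to other proteins, and feed back on the pathway. In dendritic cells the endosomal receptors Tlr7 and Tlr9 can start the pathway through Myd88 and Irf7.

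The core of that element is shown here for 6 genes, picked among those whose promoter holds it, so that the sequence known to tie such genes to the pathway can be seen. The 37 genes themselves were not chosen by it. RefSeq promoters (GRCm38.p6) were at hand for 26 of the 37 genes, and the 250 bases before the start were searched for GAAANNGAAA on both strands, overlapping matches included. The motif was in 10 of the 26 promoters (38.5%), against 936 of 27025 promoters of the same length in the whole table (3.46%). The 10 were those of Bst2, Ifi205, Ifit1, Ifit3, Isg15, Oas1a, Oas3, Rsad2, Stat2 and Trim30a. The stretches below are written 5′ to 3′ on the gene's own strand, with the matches in capitals, and a match on the opposite strand shows as the reverse complement. They lie at chr4:156200855-156200916, minus strand, for Isg15, chr19:34640765-34640833, plus strand, for Ifit1, chr12:26456543-26456592, minus strand, for Rsad2, chr1:174031860-174031909, minus strand, for Ifi205, chr10:128270256-128270305, plus strand, for Stat2, and chr8:71537567-71537622, minus strand, for Bst2.
Isg15: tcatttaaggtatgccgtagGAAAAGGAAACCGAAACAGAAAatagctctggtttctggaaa
Ifit1: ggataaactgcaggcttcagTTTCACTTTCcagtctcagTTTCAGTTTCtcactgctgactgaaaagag
Rsad2: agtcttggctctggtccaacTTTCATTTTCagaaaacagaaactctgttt
Ifi205: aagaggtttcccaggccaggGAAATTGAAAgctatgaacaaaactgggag
Stat2: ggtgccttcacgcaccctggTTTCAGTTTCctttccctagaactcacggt
Bst2: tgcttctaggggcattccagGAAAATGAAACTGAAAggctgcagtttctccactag
In Isg15, 3 matches overlapped in a row. Ifit1 held 2 separate copies, Bst2 held 2 overlapping ones, and Rsad2, Ifi205 and Stat2 held 1 each. A match is a description of these letters and not a shown binding site, and the 16 promoters without one, which include those of Oasl1, Cmpk2, Isg20 and Ifit2, were not searched further.

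Values are log2 signals, so a difference of 1 is a 2-fold change, and a level of one gene cannot be set against that of another. Each change is the difference of group means, 4 arrays in each, and is given ± the standard error of limma's fit. Arrays of the same group correlated at 0.994 to 0.996 across genes, and no pair was identical. Il6, the gene of interleukin-6, split the arrays without IMQ. It read 4.12, 3.998, 7.43 and 8.22 on the PA arrays and 7.57, 7.90, 7.71 and 4.32 on the mock arrays. Mock replicates 1 to 3 and PA replicates 3 and 4 were therefore left out as 1 alternative, with 1 mock array remaining, replicate 4. Counts or medians of the 33 genes below are given both ways, those of the other lists with all arrays. Among the 33 genes, mock replicate 4 was the lowest mock array for 22 (66.7%), against 24.4% of all genes. The other groups were uneven too. IMQ replicate 4 was the lowest IMQ array for 17 (51.5%), against 28.1% of all genes. PA replicate 1 was the lowest PA array for 14 (42.4%, against 27.2%), and IMQ+PA replicate 3 the lowest of its group for 13 (39.4%, against 25.3%). The dendritic cell markers Itgax, H2-Ab1 and Csf2ra and the macrophage markers Adgre1, Csf1r and Cd14 were above background in every group. Plasmacytoid dendritic cells are known for high interferon output. Of their 11 measured markers, Siglech, Ccr9, Spib and Klk1 lay below the background level of 4.93 in all 4 groups. So did Clec10a, a conventional dendritic cell marker. The other plasmacytoid markers, Tcf4, Ly6d, Cox6a2, Pacsin1, Lair1, Irf8 and Bst2, lay above that level in every group. That level is the 95th percentile of the mean signals of 1447 odorant, pheromone and taste receptor genes. All 33 interferon-stimulated genes lay above it in every group.

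IMQ raised almost the whole set. The first comparison asks how 24 h of IMQ changed these genes against mock. A gene is called changed where limma's adjusted p, taken over all 22180 genes, is below 0.05. Of the 33 genes, 32 were called higher and 0 lower, with Ifit3 the exception. Over all genes tested, 34.8% were called, 17.0% higher and 17.9% lower. The median change was 1.17 over the 33 genes and 0.01 over all genes, and 23 of the 33 were at least 2-fold higher. With the Il6-divergent arrays left out, mock replicate 4 alone stood for mock, and the median was 1.25. That array was the lowest mock array for 22 of the 33 genes, so this median cannot check the size of the rise. In such mixed cultures, a change in the cells present and a change in RNA per cell cannot be told apart.

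**Figure D1:**
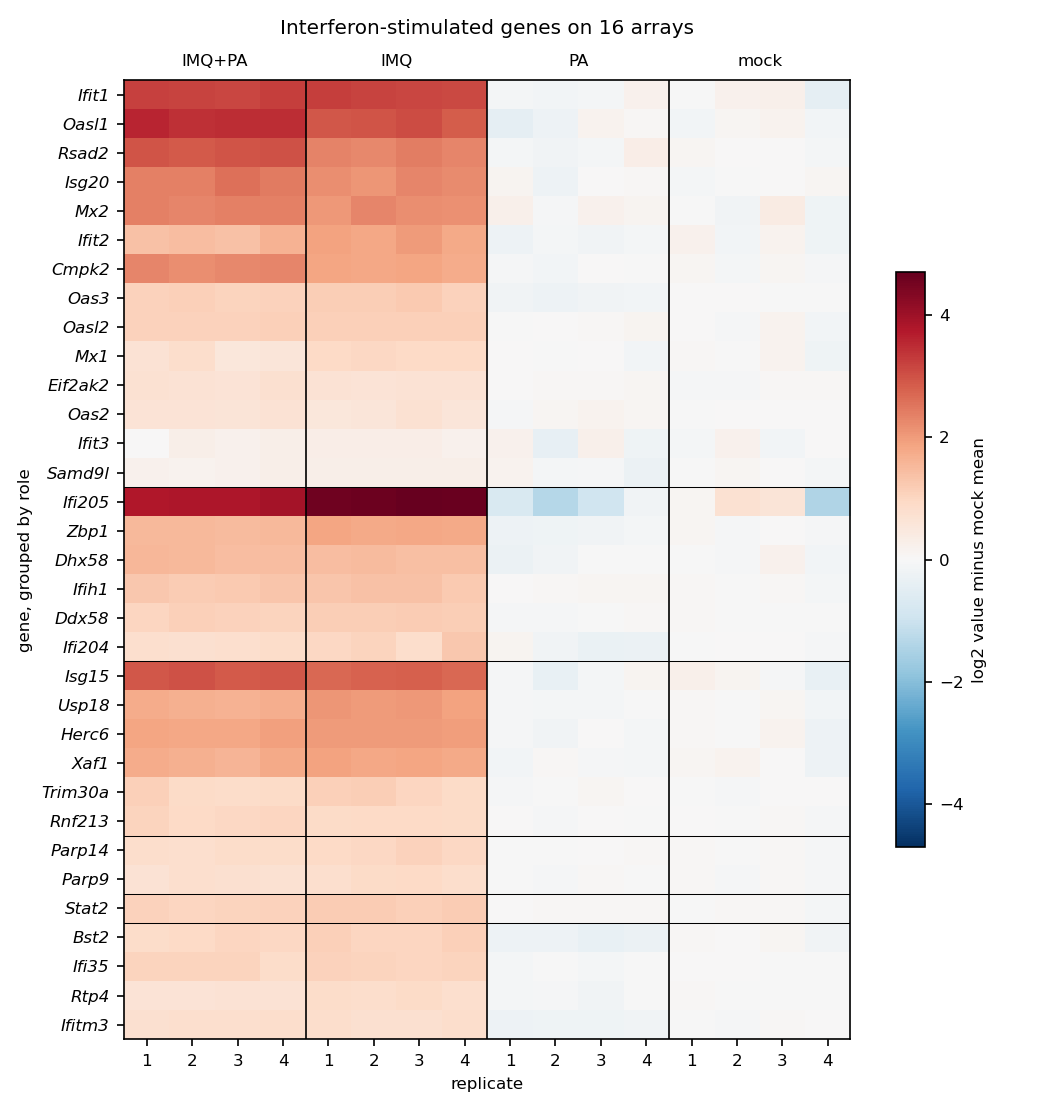
Log2 value minus the mock mean for the 33 interferon-stimulated genes (down, grouped by role) on each of 16 arrays (across, 4 replicates per group), with red above and blue below the mock mean. The IMQ+PA and IMQ blocks are red in varying depth, palest for Ifit3 and Samd9l and also pale for small rises such as those of Oas2 and Eif2ak2. The PA and mock blocks are pale except for Ifi205, which is uneven in both.

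A group of 14 measured genes holds effectors on nucleic acids or their building blocks and the GTPase genes Mx1 and Mx2. Of these 14 genes, 13 were called higher. Ifit1, which binds viral RNA lacking the host cap methylation, rose the most of them. It read 11.16, 11.15, 11.10 and 11.22 on the IMQ+PA arrays, 11.20, 11.14, 11.11 and 11.06 on the IMQ arrays, 7.87, 7.82, 7.86 and 8.14 on the PA arrays and 7.93, 8.15, 8.19 and 7.55 on the mock arrays. Every IMQ array lay more than 2 log2 units above every mock array, and the change was 3.17 ± 0.11, adjusted p = 2.18e-12, a 9.01-fold rise. Oasl1, a member of the oligoadenylate synthetase family that in mice represses the translation of Irf7 mRNA, read 9.49, 9.33, 9.39 and 9.37 on the IMQ+PA arrays, 8.85, 8.86, 8.97 and 8.75 on the IMQ arrays, 5.50, 5.68, 6.08 and 5.97 on the PA arrays and 5.80, 6.00, 6.07 and 5.78 on the mock arrays. With and without PA, no IMQ-treated array overlapped the others, and IMQ alone gave 2.94 ± 0.11, adjusted p = 3.09e-12. Rsad2, which encodes viperin, an enzyme that makes a chain-terminating nucleotide, read 11.57, 11.50, 11.57 and 11.59 on the IMQ+PA arrays, 10.96, 10.88, 11.02 and 10.91 on the IMQ arrays, 8.54, 8.46, 8.52 and 8.93 on the PA arrays and 8.70, 8.62, 8.64 and 8.51 on the mock arrays. All 3 genes were at least 5-fold higher with IMQ, Rsad2 by 2.32 ± 0.08, adjusted p = 2.62e-12.

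The exonuclease gene Isg20 rose by 2.19 ± 0.08, the dynamin-like GTPase gene Mx2 by 2.17 ± 0.10 and Ifit2, an RNA-binding relative of Ifit1, by 1.87 ± 0.09. Cmpk2, a mitochondrial nucleotide kinase gene that is the neighbour of Rsad2 on chromosome 12, rose by 1.82 ± 0.05. Oas3 and Oas2 make the 2′-5′ oligoadenylates that switch on RNase L, and they rose by 1.16 ± 0.04 and 0.59 ± 0.05. Oasl2 rose by 1.13 ± 0.05, and Eif2ak2, the double-stranded RNA kinase PKR, by 0.67 ± 0.04. Mx1 is a GTPase gene whose allele in C57BL/6 mice gives no functional protein. Its signal rose by 0.94 ± 0.07, adjusted p = 2.02e-08. The smallest change that was called was that of Samd9l, an antiviral factor gene, at 0.27 ± 0.07, adjusted p = 0.00803.

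Ifit3 was the exception. It read 6.55, 6.58, 6.55 and 6.45 on the IMQ arrays and 6.17, 6.44, 6.12 and 6.26 on the mock arrays, and the groups just failed to overlap, with IMQ replicate 4 beside the highest mock array. Its change of 0.28 ± 0.12, adjusted p = 0.0824, was called in 5 of 17 alternatives, over which the adjusted p ranged from 0.0181 to 0.363. Ifit3 has a near-identical neighbouring copy, Ifit3b, that reads below background without IMQ and 1.90 ± 0.16 higher with it (adjusted p = 9.43e-08, a lower bound of the change). How the probe sets of these copies share signal was not tested, so the value of Ifit3 is uncertain. The promoter of Ifit3 held 2 copies of the motif.

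All 6 sensors of foreign nucleic acid were called higher with IMQ. Ifi205 and Ifi204 belong to the p200 family of DNA-binding proteins. Ifi205 changed the most of the 33 genes, and read 10.62, 10.63, 10.65 and 10.73 on the IMQ+PA arrays, 11.41, 11.43, 11.50 and 11.47 on the IMQ arrays, 6.11, 5.51, 5.92 and 6.69 on the PA arrays and 6.91, 7.55, 7.46 and 5.43 on the mock arrays. The 8 arrays with IMQ were tight and the 8 without it spread over more than 2 log2 units, with mock replicate 4 the lowest of all. The rise was 4.62 ± 0.35, adjusted p = 1.86e-08, and it ranged from 4.15 to 6.02 over the 17 alternatives. Ifi204 rose by 1.03 ± 0.09. The RNA helicase sensors Dhx58, Ifih1 and Ddx58, which encode LGP2, MDA5 and RIG-I, rose by 1.44 ± 0.07, 1.32 ± 0.05 and 1.17 ± 0.04. Zbp1, a sensor of left-handed nucleic acid that can start necroptosis, rose by 1.81 ± 0.05.

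In the group drawn up for ubiquitin-like conjugation and ubiquitin ligation, which also holds Xaf1, all 6 measured genes rose. Isg15, the modifier itself, read 10.41, 10.49, 10.40 and 10.42 on the IMQ+PA arrays, 10.23, 10.30, 10.32 and 10.19 on the IMQ arrays, 7.45, 7.16, 7.42 and 7.63 on the PA arrays and 7.76, 7.65, 7.47 and 7.17 on the mock arrays. Its IMQ arrays lay far above all mock arrays, by 2.75 ± 0.11, adjusted p = 7.98e-12. Usp18, the protease that removes Isg15 from proteins and also restrains the type I receptor, read 11.28, 11.22, 11.17 and 11.24 on the IMQ+PA arrays, 11.61, 11.55, 11.59 and 11.44 on the IMQ arrays, 9.48, 9.45, 9.43 and 9.51 on the PA arrays and 9.58, 9.53, 9.63 and 9.42 on the mock arrays. It rose by 2.01 ± 0.05, adjusted p = 1.08e-13, a 4.03-fold rise. Herc6, the main Isg15 ligase in mice, rose by 2.00 ± 0.07, and Xaf1, an XIAP-associated zinc finger gene, by 1.84 ± 0.07. The ligase genes Trim30a and Rnf213 rose by 1.04 ± 0.06 and 0.91 ± 0.04.

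The remaining genes rose by 2.26-fold or less. Stat2, a subunit of the factor that binds the response element, read 10.63, 10.55, 10.59 and 10.63 on the IMQ+PA arrays, 10.71, 10.72, 10.67 and 10.73 on the IMQ arrays, 9.53, 9.59, 9.58 and 9.58 on the PA arrays and 9.51, 9.57, 9.59 and 9.45 on the mock arrays. No IMQ array overlapped a mock array, and the change was 1.17 ± 0.04, adjusted p = 2.58e-12. The ADP-ribosyltransferase genes Parp9 and Parp14 rose by 0.85 ± 0.05 and 0.99 ± 0.05. Bst2, which encodes tetherin, rose by 1.07 ± 0.06, Ifi35, a leucine zipper protein gene, by 1.06 ± 0.05, and Rtp4, a receptor chaperone gene, by 0.84 ± 0.04. A second probe set of Ifi35, with a lower signal, rose by only 0.33, so the size of its change is uncertain. Ifitm3, which blocks virus entry from endosomes, rose by 0.78 ± 0.04.

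The set rose with IMQ in PA-treated cells too. Between IMQ+PA and PA, 32 of the 33 genes were called higher and 0 lower, again with Ifit3 not called (0.24 ± 0.12, adjusted p = 0.152). Over all genes, 35.3% were called in that comparison, 16.8% higher and 18.5% lower. The median change was 1.18 over the 33 genes, with 22 at least 2-fold higher, and without the Il6-divergent arrays 31 were called. Ifi205 rose by 4.60 ± 0.35, adjusted p = 1.78e-08, Oasl1 by 3.59 ± 0.11, adjusted p = 3.57e-13, Ifit1 by 3.23 ± 0.11, adjusted p = 1.46e-12, Isg15 by 3.02 ± 0.11, adjusted p = 2.35e-12, and Rsad2 by 2.95 ± 0.08, adjusted p = 2.17e-13. The IMQ+PA arrays also lay above every mock array, 4 of 4, for each of the 32 genes that IMQ raised. Those genes were picked by their call against the same mock arrays, so this count is not separate support. The share over all genes was not counted.

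**Figure D2:**
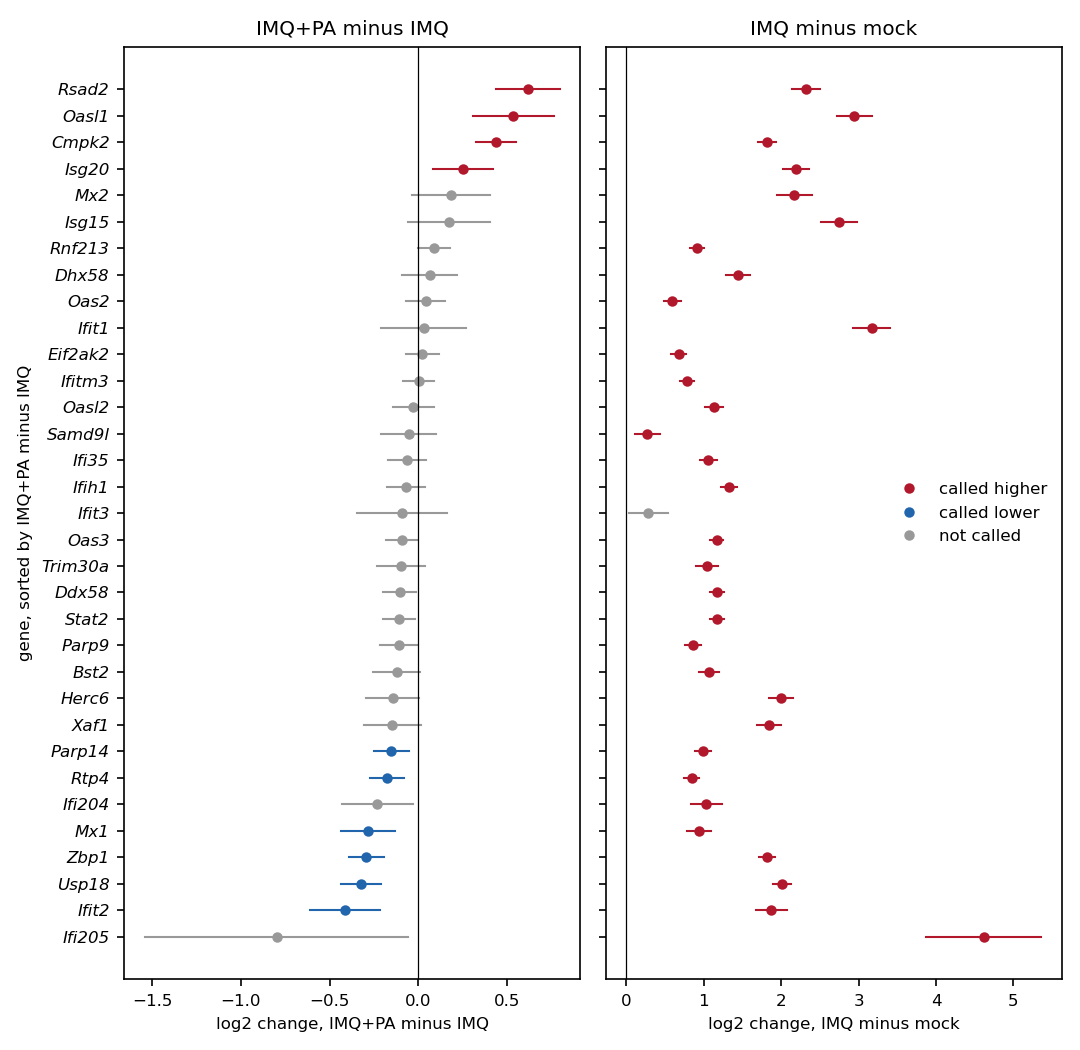
Log2 change of each of the 33 genes between IMQ+PA and IMQ (left) and between IMQ and mock (right), as points with 95% intervals, coloured by limma's call and sorted by the left panel. All points of the left panel lie within 1 log2 unit of 0, with Rsad2 at 0.62 and Ifi205 at -0.80, while the right panel reaches 4.62.

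In IMQ-treated cells PA changed 10 of these genes, in both directions and by small amounts. The comparison asks what PA added to the IMQ response. Between IMQ+PA and IMQ, 10 of the 33 genes were called, 4 higher and 6 lower, where 21.1% of all genes were called, 11.6% higher and 9.44% lower. The median change was -0.09 over the 33 genes and -0.02 over all genes. None changed 2-fold, and the largest called change was 1.54-fold. Of the 23 genes not called, 22 had a 95% interval within 0.5 log2 units of 0, Ifi205 being the exception. Rsad2, Oasl1, Cmpk2 and Isg20 were called higher, and Ifit2, Usp18, Zbp1, Mx1, Rtp4 and Parp14 lower. The group of 14 genes with the nucleic acid effectors and the Mx genes held the 4 higher genes and 2 of the lower ones, Ifit2 and Mx1. Its median change was 0.03. Without the Il6-divergent arrays 9 genes were called, 3 higher and 6 lower, with Isg20 and Parp14 no longer called and Ifi205 called lower.

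Rsad2 rose by 0.62 ± 0.08, adjusted p = 4.42e-05, from the values above. Its 4 IMQ+PA arrays lay between 11.50 and 11.59 and its IMQ arrays between 10.88 and 11.02, so the groups were well apart. Oasl1 rose by 0.54 ± 0.11, adjusted p = 0.00164, with every IMQ+PA array above every IMQ array. Cmpk2 read 10.00, 9.89, 9.97 and 10.03 on the IMQ+PA arrays, 9.56, 9.54, 9.58 and 9.46 on the IMQ arrays, 7.67, 7.59, 7.72 and 7.70 on the PA arrays and 7.80, 7.63, 7.80 and 7.65 on the mock arrays. Again the 2 groups with IMQ did not overlap, and the change was 0.44 ± 0.05, adjusted p = 1.49e-05. Isg20 read 9.17, 9.18, 9.38 and 9.24 on the IMQ+PA arrays, 8.97, 8.87, 9.08 and 9.04 on the IMQ arrays, 6.95, 6.57, 6.82 and 6.86 on the PA arrays and 6.70, 6.78, 6.83 and 6.91 on the mock arrays. Its lowest IMQ+PA array exceeded the highest IMQ array by under 0.1, and the change was 0.25 ± 0.08, adjusted p = 0.034. The call for Isg20 was lost without IMQ replicate 1 or 2, without IMQ+PA replicate 3 or 4, and without the Il6-divergent arrays, while Rsad2, Oasl1 and Cmpk2 were called in all 17 alternatives.

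Ifit2 fell the most of the called genes. It read 7.24, 7.33, 7.23 and 7.51 on the IMQ+PA arrays, 7.75, 7.69, 7.87 and 7.65 on the IMQ arrays, 5.65, 5.78, 5.71 and 5.78 on the PA arrays and 6.07, 5.73, 6.04 and 5.65 on the mock arrays. The IMQ+PA arrays lay below all IMQ arrays and above all PA and mock arrays, and the change from IMQ was -0.41 ± 0.09, adjusted p = 0.00391. Its relative Ifit1 differed by 0.03 ± 0.11, adjusted p = 0.894, with overlapping groups. Whether the PA changes of Ifit1 and Ifit2 differ was not tested. Usp18 changed by -0.32 ± 0.05, adjusted p = 0.000311, and Zbp1, with 10.45, 10.45, 10.42 and 10.46 on the IMQ+PA arrays, 10.78, 10.69, 10.76 and 10.72 on the IMQ arrays, 8.69, 8.73, 8.74 and 8.83 on the PA arrays and 9.01, 8.87, 8.96 and 8.87 on the mock arrays, by -0.29 ± 0.05, adjusted p = 0.000215. In both genes the IMQ+PA and IMQ arrays were separate.

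Mx1 read 7.77, 7.91, 7.63 and 7.68 on the IMQ+PA arrays, 8.03, 8.05, 8.02 and 8.02 on the IMQ arrays, 7.11, 7.08, 7.12 and 6.98 on the PA arrays and 7.14, 7.09, 7.24 and 6.90 on the mock arrays. The IMQ+PA and IMQ arrays did not overlap, and it changed by -0.28 ± 0.07, adjusted p = 0.00909. Its relative Mx2 differed by 0.18 ± 0.10, adjusted p = 0.253, and was not called. Rtp4 read 9.87, 9.89, 9.91 and 9.93 on the IMQ+PA arrays, 10.10, 10.06, 10.12 and 10.03 on the IMQ arrays, 9.14, 9.20, 9.07 and 9.21 on the PA arrays and 9.30, 9.22, 9.21 and 9.21 on the mock arrays, and changed by -0.18 ± 0.04, adjusted p = 0.00862. Parp14 changed by -0.15 ± 0.05, adjusted p = 0.0295. With all array medians made equal, 8 genes were called and Rtp4 and Parp14 lost their calls, and Parp14 also lost it with the 2 groups alone, without IMQ replicate 3 or IMQ+PA replicate 1, 2 or 3, and without the Il6-divergent arrays, so that it was called in 10 of 17 alternatives.

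The other lead genes of the IMQ response showed no called change with PA. Isg15 differed by 0.17 ± 0.11, adjusted p = 0.31, Stat2 by -0.11 ± 0.04, adjusted p = 0.0914, and Bst2 by -0.12 ± 0.06, adjusted p = 0.194. The RNA sensors Ifih1, Ddx58 and Dhx58 differed by -0.07 ± 0.05, -0.10 ± 0.04 and 0.06 ± 0.07, and Herc6 and Xaf1 by -0.15 ± 0.07 and -0.15 ± 0.07. Ifi205 is a special case. Its arrays did not overlap, at 10.62 to 10.73 with IMQ+PA and 11.41 to 11.50 with IMQ, a change of -0.80 ± 0.35, adjusted p = 0.128. The error in that fit is shared with the groups without IMQ, where Ifi205 was uneven. Fitted with the 2 groups alone, its adjusted p was 8.07e-06, and over the 17 alternatives it ranged from 8.07e-06 to 0.202, with 2 calls.

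**Figure D3:**
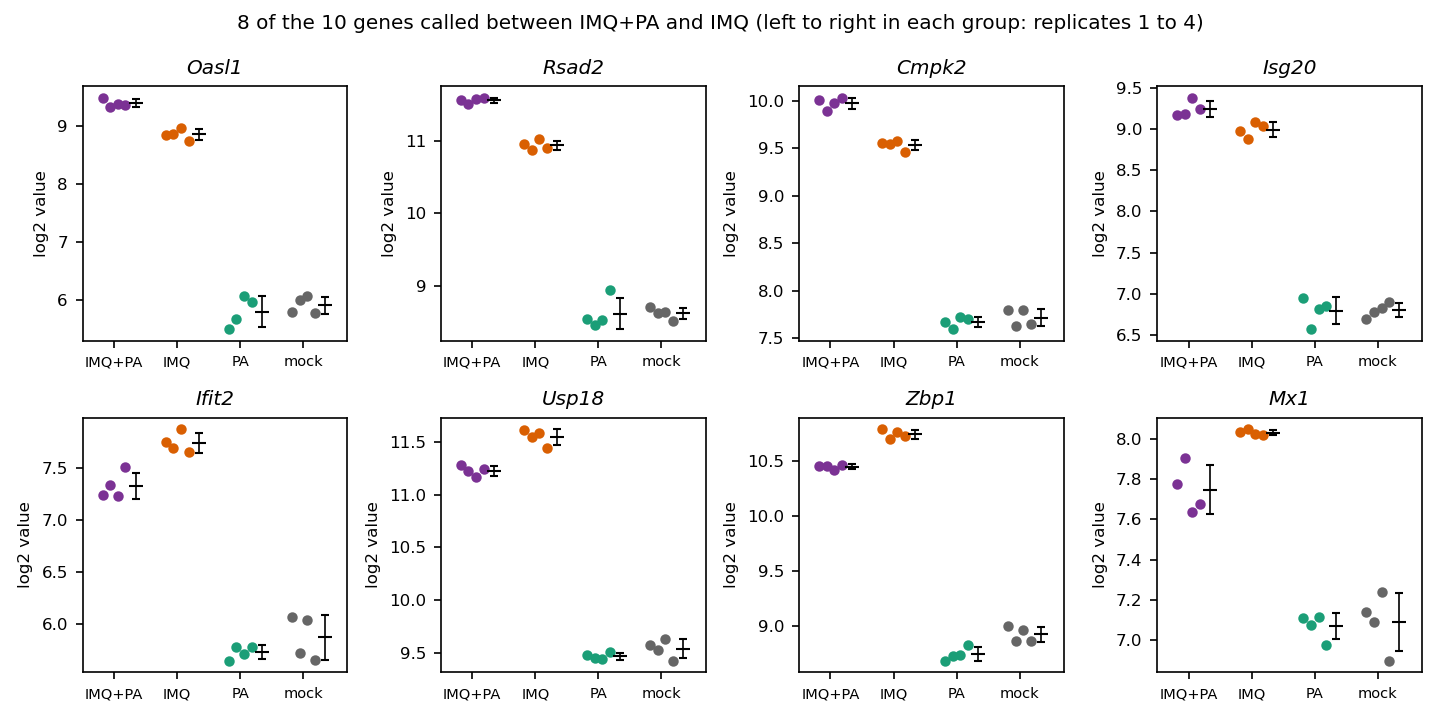
Log2 values on every array for the 4 genes called higher (upper row) and 4 of the 6 called lower (lower row) between IMQ+PA and IMQ, with group means ± SD (n = 4) beside the points. In each panel the IMQ+PA and IMQ arrays are separate, and both lie above all PA and mock arrays.

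Whether PA acted differently with and without IMQ was tested by the interaction, which subtracts the PA change in cells without IMQ from that in IMQ-treated cells. Of the 33 genes, 5 were called, 4 higher and 1 lower, where 13.6% of all genes were called, 6.58% higher and 7.01% lower. The median was -0.04 over the 33 genes and -0.01 over all genes. The interaction was 0.64 ± 0.15, adjusted p = 0.00938, for Oasl1, 0.62 ± 0.12, adjusted p = 0.00187, for Rsad2, and 0.49 ± 0.08, adjusted p = 0.000338, for Cmpk2. These 3 genes were also the ones with the largest rises with PA in IMQ-treated cells, and none was called with PA alone (for Oasl1, -0.11 ± 0.11, adjusted p = 0.706). The interaction includes those same rises, so the match is not separate support. For Ifitm3 the interaction was 0.21 ± 0.06, adjusted p = 0.0249, with a called fall with PA alone and a difference of 0.00 ± 0.04 with IMQ. For Usp18 it was -0.25 ± 0.08, adjusted p = 0.039. Usp18 was called in 9 of 24 alternatives, and Ifitm3 in 19 of 24, losing its call without mock replicate 4, PA replicate 1 or IMQ replicate 2, with equal array medians and without the Il6-divergent arrays. Without the Il6-divergent arrays 4 genes were called, Ifi205 now among them at -1.18 (adjusted p = 0.00986, within a range of 0.00986 to 1 over the alternatives).

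PA alone left the set close to mock. Of the 33 genes, 0 were called higher and 3 lower, where 1.49% of all genes were called, 1.05% higher and 0.442% lower. The median change was -0.05 over the 33 genes and 0.01 over all genes. Changes below 0 were 25 of 33, against 10087 of 22180 over all genes. Of the 30 genes not called, 29 had a 95% interval within 0.5 log2 units of 0, again all but Ifi205. Bst2 read 11.36, 11.42, 11.50 and 11.47 on the IMQ+PA arrays, 11.62, 11.50, 11.50 and 11.62 on the IMQ arrays, 10.26, 10.26, 10.15 and 10.22 on the PA arrays and 10.56, 10.51, 10.59 and 10.31 on the mock arrays. Its highest PA array lay just below mock replicate 4, the lowest mock array, and the change was -0.27 ± 0.06, adjusted p = 0.0396. Ifitm3 read 12.51, 12.52, 12.52 and 12.57 on the IMQ+PA arrays, 12.56, 12.49, 12.50 and 12.55 on the IMQ arrays, 11.50, 11.56, 11.54 and 11.57 on the PA arrays and 11.72, 11.70, 11.78 and 11.78 on the mock arrays. The PA and mock arrays were separate, with a change of -0.20 ± 0.04, adjusted p = 0.0179. Oas3 read 9.83, 9.86, 9.79 and 9.82 on the IMQ+PA arrays, 9.92, 9.91, 9.99 and 9.85 on the IMQ arrays, 8.58, 8.53, 8.58 and 8.62 on the PA arrays and 8.76, 8.76, 8.75 and 8.75 on the mock arrays. Its mock arrays were almost equal and all above the PA arrays, with a change of -0.18 ± 0.04, adjusted p = 0.0394.

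These 3 calls were not stable. None was called when PA and mock were fitted alone, with equal array medians or without the Il6-divergent arrays, and leaving out any single array of the 2 groups kept at most 1 of them. Ifitm3 was called without mock replicate 1, 2 or 3 or PA replicate 2 or 4, Bst2 without mock replicate 4, and none of the 3 without PA replicate 1 or 3. Isg15 differed by -0.10 ± 0.11, adjusted p = 0.735, Ifit1 by -0.03 ± 0.11, adjusted p = 0.932, Stat2 by 0.04 ± 0.04, adjusted p = 0.713, Usp18 by -0.07 ± 0.05, adjusted p = 0.571, and Mx1 by -0.02 ± 0.07, adjusted p = 0.928. For Ifi205 the change was -0.78 ± 0.35, adjusted p = 0.317. It was called at -1.25 without mock replicate 4 (adjusted p = 0.00663), over alternatives that ranged from -1.25 to 0.38 and, in adjusted p, from 0.00663 to 0.706.

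**Figure D4:**
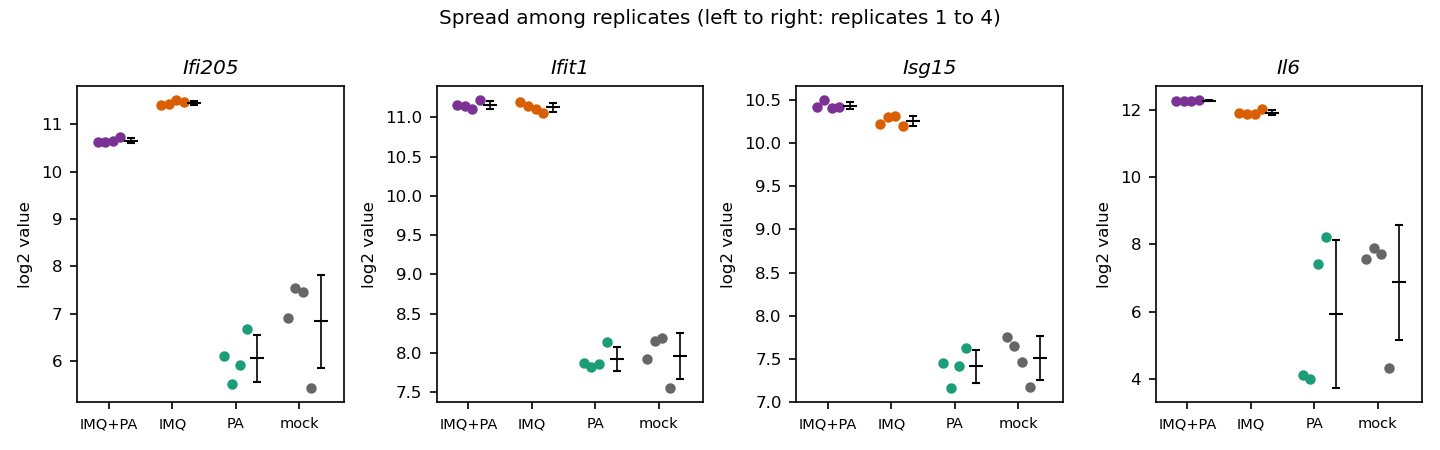
Log2 values on every array for Ifi205, Ifit1, Isg15 and Il6, replicates 1 to 4 from left to right in each group, with group means ± SD (n = 4). The arrays with IMQ are tight in all 4 genes, while without IMQ mock replicate 4 is the lowest mock array and Il6 splits both groups.

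The other genes of the pathway, from lists drawn up for the purpose, were read on the same arrays. Over all genes tested, 17.0% were called higher and 17.9% lower with IMQ, and 11.6% and 9.44% with PA added to IMQ. With PA alone these shares were 1.05% and 0.442%, and between IMQ+PA and PA 16.8% and 18.5%. The counts of each list below are to be read beside these shares. Most of the interferon genes themselves gave little signal. Of 19 measured type I, II and III interferon genes, 12 lay below background in all groups and 1 in some. The other 6, Ifna1, Ifna4, Ifna14, Ifna15, Ifnl2 and Ifnl3, lay above it in every group. With IMQ 1 was called higher, Ifna12 at 0.32, itself below background throughout. Ifnb1, the gene of interferon beta, was below background on the mean of each group, at 3.50 to 3.98 on the IMQ+PA arrays, 3.42 to 3.77 on the IMQ arrays, 3.21 to 3.67 on the PA arrays and 3.32 to 3.86 on the mock arrays. Its groups overlapped, with 0.04 ± 0.13 between IMQ and mock (adjusted p = 0.881) and 0.12 ± 0.13 between IMQ+PA and IMQ (adjusted p = 0.603). The arrays were taken at 24 h, and earlier times were not analysed here. Between IMQ+PA and IMQ, Ifna4 fell by 0.42 (adjusted p = 0.000815), and Ifnk and Ifng were called at 0.34 and -0.29 below background.

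Of 9 interferon receptor and kinase genes, 4 were called higher and 3 lower with IMQ. Jak2, a kinase of the interferon gamma receptor, rose by 1.90 ± 0.09, Ifnar2 by 1.16 ± 0.05 and Ifnar1 by 0.41 ± 0.04, while Ifngr1 fell by 0.55. With PA added to IMQ, 0 were called higher and 5 lower. Jak2 changed by -0.46 ± 0.09, Ifngr1 by -0.39 ± 0.04 and Ifnar2 by -0.35 ± 0.05, and Ifnar1 by -0.07 ± 0.04 (adjusted p = 0.292). Ifnar2 read 10.90, 10.93, 10.87 and 11.05 on the IMQ+PA arrays and 11.27, 11.29, 11.31 and 11.28 on the IMQ arrays. The ranges were separate, and the interaction for Ifnar2 was called at -0.35 (adjusted p = 0.00305).

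Among 5 measured transcription factors of the pathway, 4 rose with IMQ and 3 fell when PA was added. Irf7, the factor that amplifies interferon production, read 10.85, 10.86, 10.86 and 10.84 on the IMQ+PA arrays, 11.08, 10.98, 11.06 and 11.08 on the IMQ arrays, between 7.96 and 8.16 on the PA arrays and 8.35, 8.40, 8.46 and 8.18 on the mock arrays. It rose by 2.70 ± 0.06 with IMQ, changed by -0.20 ± 0.06 with PA added to IMQ (adjusted p = 0.0276), and by -0.31 ± 0.06 with PA alone (adjusted p = 0.0162). Irf9, the DNA-binding partner of Stat2, rose by 0.58 ± 0.05 with IMQ and changed by -0.21 ± 0.05 with PA added (adjusted p = 0.00571). Irf1 rose by 0.65 ± 0.05 and changed by -0.25 ± 0.05 in the same comparisons.

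The sensors and adaptors upstream moved both ways. Of 15 measured, 6 were called higher and 8 lower with IMQ. The kinase gene Ikbke rose by 1.53 ± 0.04, Tlr3 by 0.81 ± 0.07 and the kinase gene Tbk1 by 0.45 ± 0.04, while Slc15a4, a lysosomal transporter gene needed for Tlr7 signalling, fell by 1.31, Tlr9 by 0.74 and Tlr7 by 0.61. With PA added to IMQ, 3 were called higher and 6 lower. Tlr7, the receptor that IMQ acts on, read 8.33, 8.40, 8.45 and 8.51 on the IMQ+PA arrays, 9.21, 9.25, 9.25 and 9.24 on the IMQ arrays, 9.84, 9.79, 9.90 and 9.85 on the PA arrays and 9.89, 9.83, 9.77 and 9.90 on the mock arrays. It changed by -0.82 ± 0.05 between IMQ+PA and IMQ (adjusted p = 3.78e-09), and the interaction was -0.81 (adjusted p = 6.48e-07). The adaptor gene Myd88 and Ikbke changed by -0.45 each, and Ticam1, the adaptor of Tlr3, and Traf6 rose by 0.44 and 0.31.

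Of 11 measured inhibitors of the pathway, 8 were called higher and 1 lower with IMQ. The feedback inhibitors Socs3 and Socs1 rose by 3.15 ± 0.11 and 2.89 ± 0.08. With PA added, 1 was called higher and 5 lower, with the phosphatase genes Ptpn6 and Ptpn1 at -0.54 ± 0.04 and -0.50 ± 0.05 and Socs1 at -0.35 ± 0.08 (adjusted p = 0.00301). Socs1 was also called lower with PA alone, at -0.46 ± 0.08 (adjusted p = 0.00452).

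A longer list of 88 further interferon-stimulated genes, 75 of them measured, was read alongside. With IMQ 65 were called higher and 5 lower, with a median change of 0.85. Ifit1bl1, a relative of Ifit1, rose by 4.09 ± 0.19, the Schlafen gene Slfn4 by 3.84 ± 0.18, and Ms4a4c, below background without IMQ, by 3.27 ± 0.26 as a lower bound. Ifi30, a lysosomal reductase gene, fell by 0.83. With PA added to IMQ, 5 were called higher and 23 lower, with a median of -0.09. The chemokine gene Cxcl10 read 9.70, 9.68, 9.91 and 9.87 on the IMQ+PA arrays and 9.10, 9.02, 9.11 and 8.96 on the IMQ arrays. These were separate, at 0.75 ± 0.13 (adjusted p = 0.000489). Trim25, the ligase that activates RIG-I, rose by 0.61 ± 0.05 and Ifi27 by 0.36 ± 0.05. Ms4a4c changed by -0.96 ± 0.26, Fcgr1, the high-affinity IgG receptor gene, by -0.89 ± 0.05, and Trim30b, a relative of Trim30a, by -0.76 ± 0.09. Oas1g, measured by its own probe set, rose by 1.49 ± 0.07 with IMQ and changed by -0.29 ± 0.07 with PA added (adjusted p = 0.00424). With PA alone 0 were called higher and 2 lower, Ifitm6 at -0.57 and Phf11d at -0.33, and between IMQ+PA and PA 62 were called higher and 5 lower. Across the other pathway lists Irf7 and Socs1 were the 2 genes called with PA alone.

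Markers of cell types moved on the same arrays. Of all genes, 17.0% were called higher and 17.9% lower with IMQ, 11.6% and 9.44% with PA added, and 1.05% and 0.442% with PA alone. Of 11 measured macrophage markers, which include Fcgr1, 4 were called higher and 7 lower with IMQ, and 3 higher and 6 lower with PA added to IMQ. Their mean level was 9.63 to 9.70 on the IMQ+PA arrays, 9.72 to 9.78 on the IMQ arrays, 10.0 to 10.1 on the PA arrays and 10.1 to 10.2 on the mock arrays. Of 11 conventional dendritic cell markers, 4 were called higher and 7 lower with IMQ, and 2 higher and 2 lower with PA added, with mean levels between 8.12 and 8.18 with IMQ+PA, 7.999 and 8.03 with IMQ, 8.03 and 8.09 with PA and 8.02 and 8.16 with mock. Of 11 plasmacytoid markers, which include Bst2 itself, 4 were called higher and 2 lower with IMQ, and 0 higher and 2 lower with PA added. Their mean level was 6.28 to 6.42 with IMQ+PA, 6.53 to 6.65 with IMQ, 6.29 to 6.45 with PA and 6.31 to 6.48 with mock. Of 12 neutrophil markers 5 lay below background in all groups, 3 were called higher and 3 lower with IMQ, and 2 higher and 2 lower with PA added. Among them S100a8, which encodes a calcium-binding protein, rose by 1.52 with IMQ, and Csf3r, the receptor gene of the growth factor G-CSF, changed by -1.85 with PA added to IMQ. The mean level of this list was 5.32 to 5.43 with IMQ+PA, 5.60 to 5.64 with IMQ, 5.52 to 5.58 with PA and 5.70 to 5.76 with mock. Of 10 mast cell, basophil and eosinophil markers 5 lay below background in all groups, 3 were called higher and 1 lower with IMQ, and 1 higher and 0 lower with PA added. The lower one was Siglecf, a sialic acid-binding receptor gene, at -2.57. Of 11 lymphocyte and natural killer markers 10 lay below background, and limma called 0 of these 11 with IMQ or with PA added, with unadjusted p below 0.05 for 0 and 1. With PA alone 5 markers were called, Cox6a2 higher at 0.56 and Marco, Siglecf, Bst2 and Csf3r lower at -0.56, -0.29, -0.27 and -0.21. The part of these markers in the changes of the interferon-stimulated genes was not tested.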

How the data were processed

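The deposited values are log2 signals per probe set, made by the authors with RMA and the affy package, per the submitters' processing notes, which give no versions. RMA aligns the distributions of the arrays, so a shift shared by all genes would not show. Array medians over the genes analysed still ran from 5.29 to 5.39, and calls with all medians made equal are given below. Of 41345 probe sets, 23521 carried 1 gene symbol in the platform annotation, 1814 carried several and 16010 had none listed, and 23328 of the first were found in RefSeq by gene number. The probe set with the highest mean stood for each of 22180 genes, 1082 of which had more than 1. The genes described and the pathway and marker lists were chosen with earlier results of these data known.

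A model of 4 group means covered all 16 arrays, using limma 3.58.1 under R 4.3.3 (lmFit and eBayes, two-sided, 12 residual and 2.96 prior degrees of freedom). Benjamini-Hochberg adjustment ran over all genes in each of 5 comparisons, and a gene is called at an adjusted p below 0.05. Errors of changes are standard errors, and intervals are 95%. The precision is limited by 4 arrays per group. The script was tested on simulated data.

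Values on every array are printed for the 5 genes with the largest called rise and the 5 with the largest called fall in each comparison, and for Isg15, Ifit1, Mx1, Oasl1, Stat2, Usp18 and Bst2. Up to 3 called genes in each direction are named per pathway list. Alternatives changed the normalization, the filter on dim genes, the moderation, the replicate block, the probe set rule and the arrays included. Promoters were read with Python 3.11.15.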

Additional observations from a re-analysis of the deposited data

Results flagged for a closer look

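In 7 of 132 sets of 4 arrays (33 genes in 4 groups) 1 array stood apart from the other 3 by Dixon's criterion, where chance alone gives about 1 in 20. Rsad2 read 8.93 on PA replicate 4, against 8.46 to 8.54 on the other PA arrays, and Ifi35 read 9.11 on IMQ+PA replicate 4, against 9.30 to 9.32. The other gaps were smaller. Ifitm3 read 12.6 on IMQ+PA replicate 4, Zbp1 10.4 on IMQ+PA replicate 3, Oasl2 11.2 on IMQ replicate 4, Ddx58 8.83 on mock replicate 1 and Rtp4 9.30 on mock replicate 1.

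The effect of PA differed with and without IMQ, by limma's interaction term, for 5 of the 33 genes, where 13.6% of all genes were called. The PA change in IMQ-treated cells exceeded that in cells without IMQ by 0.64 for Oasl1, 0.62 for Rsad2, 0.49 for Cmpk2 and 0.21 for Ifitm3, and for Usp18 the same difference was -0.25. Of these, Oasl1, Rsad2 and Cmpk2 rose with PA in IMQ-treated cells, Usp18 fell there, and Ifitm3 fell with PA alone. Oasl1, Rsad2 and Cmpk2 kept their interaction call in all 24 alternatives, Ifitm3 in 19 and Usp18 in 9.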

How the results depend on the processing

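The 32 calls with IMQ, and the 32 between IMQ+PA and PA, stayed within 31 to 33 under every alternative run, and no gene's called change turned its sign. Between IMQ+PA and IMQ, 8 to 15 genes were called, with 4 higher and 4 lower at equal array medians and 5 higher and 10 lower with trend and robust moderation. With the replicate block, 1 gene was called between PA and mock, against 3 without it, and 32, 10, 32 and 5 in the IMQ versus mock, IMQ+PA versus IMQ, IMQ+PA versus PA and interaction comparisons, as without it. The numbers were not taken as pairs: deviations from the group means correlated over 0.1 in 4 of 24 pairs of arrays with the same number (-0.12 to 0.17), against 2 of 72 with different numbers, and 7 of 16 arrays correlated best with their own number. Between PA and mock, 0 genes were called with the 2 groups alone, with equal array medians and without the Il6-divergent arrays (1 mock array left, assumed to vary like the other groups). With equal array medians, 3 genes were called in the interaction. The median change of the 33 genes between IMQ and mock was 1.25 without the Il6-divergent arrays and 1.10 with quantile normalization repeated. Between PA and mock it was 0.0151 and -0.10, and in the interaction -0.12 and 0.00728, under the same 2 settings, so these 2 medians near 0 have no settled sign. The cause was not tested. Leaving out each array in turn gave 32 to 33 calls with IMQ (median 1.16 to 1.18), 8 to 10 between IMQ+PA and IMQ (-0.10 to -0.06), 32 to 33 between IMQ+PA and PA (1.16 to 1.20), 3 to 5 in the interaction (-0.07 to -0.00) and 0 to 2 between PA and mock (-0.09 to -0.02). The motif was in 5 of 26 promoters with the longer form GAAANNGAAACT, against 0.255% of all promoters, and in 9 within 150 bases of the start, against 1.85%.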
